A study of Mus musculus with 36 samples.

Results

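Lot 12 is 1 of 5 litters of mouse astrocytes that lack Nf1 and carry a dominant-negative p53, written Nf1-/- DNp53 in the labels, and it was set against lots 7, 8 and 11 of the same genotype. Lot 12 gave 6 libraries, 3 from its female and 3 from its male line. Lots 7, 8 and 11 gave 24 libraries, 4 from each of 6 lines, and Lot 6, left out by the rule, gave 6 of the series' 36 libraries. All cells were transformed, were grown in DMEM/F12 with fetal bovine serum, and were profiled from polyadenylated RNA by BRB-seq, in which barcoded samples are pooled early and each transcript is counted near its 3′ end. No group was treated and none kept Nf1, so every comparison is between litters or between lines of the same engineered genotype. Each litter has 1 line per sex, and the age of the animals is not given in the sources used here.

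Genes were chosen by the ordering of the lines. The counts of each line's libraries were summed, scaled for depth and expressed as CPM, a line's counts relative to its scaled total, and a gene was kept where both Lot 12 lines lay above, or both lay below, all 6 lines of lots 7, 8 and 11. Of 46078 genes in the table, 2767 met this rule and 24416 had no count in the 8 lines. Among the 11104 genes with a mean of at least 1 CPM over the 8 lines, 1000 were higher in both Lot 12 lines (9.01%) and 1142 were lower (10.3%), 2142 separated genes in all. With library totals alone as the scale the counts were 1230 higher and 837 lower. These shares and every fold change against lots 7, 8 and 11 describe values that chose the genes, and no test of them is used as support. Litter, day of culture and handling of the lot cannot be told apart, since Lot 12 is 1 litter.

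Nf1 encodes neurofibromin, which turns RAS off, and its loss leaves signalling through ERK less restrained. Astrocytes that lose Nf1 and p53 function are used as a model of glioma, and cultured astrocytes in serum can take up features of mesenchymal cells, among them actin stress fibres and a collagen-rich matrix. Smooth muscle contractile genes such as Tagln and Myl9 are driven by serum response factor through a DNA element called the CArG box, while Sprouty proteins and the ETS factor Etv4 are transcribed in response to ERK.

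The libraries of Lot 12 held 4539980 to 7145430 counts, and the 24 others held 4358100 to 7445520. Lot 12 libraries detected 12702 to 14177 genes, against 12654 to 13848 in the others. Over 4 library measures, the Lot 12 lines were compared with the other 6 lines by an exact 2-sided permutation test, which cannot go below p = 0.0714 with 2 lines against 6, and the other 3 measures gave p = 0.214 or more. Mitochondrial mRNA took 0.620% ± 0.008 of counts in Lot 12 lines (SD, n = 2) and 0.547% ± 0.0366 in the others (n = 6; exact permutation p = 0.0714, 0.286 after adjustment over the 4 measures). Lots 7, 8 and 11 have libraries numbered 4, with 0.251% to 0.349%, and Lot 12 has none. With these left out, the others had 0.623% ± 0.0388 (n = 6; exact permutation p = 0.929). A count of 3 corresponds to 0.403 to 0.688 CPM in 1 library. Ddx3y, on the Y chromosome, was at 0 CPM in the female and 18.8 CPM in the male Lot 12 line. Xist, on the X chromosome, was scarce. Over both sexes it had 0 to 7.00 CPM in Lot 12 libraries (median 0.896) and 0 to 7.71 CPM in the others (median 0.249).

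The astrocyte label was checked against 14 markers, of which 7 reached the level for comparison. Gja1, the connexin of astrocyte gap junctions, had 119 and 147 CPM in the Lot 12 female and male lines, against 83.0 to 187 CPM in the other 6. Gfap and Gjb6 were at 0 in both Lot 12 lines, and Aqp4 had 0.257 and 0.613 CPM. Gfap, the intermediate filament of mature astrocytes, reached 0.484 CPM at most in the other lines. The 7 markers at the level for comparison were Aldh1l1, Apoe, Gja1, Glul, Ndrg2, Slc1a3 and Sox9. The list summed to 273 to 377 CPM in Lot 12 lines, against 134 to 231 CPM. This sum includes Apoe, the only separated marker, at 125 and 200 CPM against 4.95 to 23.6 CPM, and the other 6 overlapped. Nf1 mRNA itself had 2.11 and 1.78 CPM in Lot 12, against 1.45 to 2.47 CPM. The 3′ counts do not show which exons remain, so this value checks nothing about the deletion. Trp53 had 198 and 204 CPM in Lot 12, against 207 to 395 CPM, and these counts do not tell the mouse gene from any product of a p53 construct.

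The higher genes had the larger differences. Their median log2 fold change was 0.75, and 343 of 1000 (34.3%) exceeded 2-fold. The lower genes had a median of -0.43, and 115 of 1142 (10.1%) exceeded 2-fold. Over all genes tested the median was 0.00. The gap means the log2 distance between the Lot 12 line nearest to the others and the nearest other line. It was above 1 for 58 higher and 10 lower genes. The filter of at least 1 CPM uses the mean over all 8 lines, so some genes passed only through their Lot 12 values. Fxyd6 and Mfap4, for example, had means of 0.356 and 0.884 CPM in the other 6 lines. How far the filter shapes the difference between the 2 directions was not tested. With libraries kept apart in place of line sums, 63 genes had all 6 Lot 12 libraries above all 24 others (0.567%), and 34 had all 6 below (0.306%). A fit of the 8 line sums by edgeR, which uses the same contrast as the rule, called 12 genes higher (0.108%) and 0 lower at an adjusted p under 0.05, while 948 higher and 812 lower genes had an unadjusted p under 0.05 and DESeq2 called 273 and 185. The values tested are those that chose the genes, so nothing is read from these counts. The count of 12 became 0 without the Lot 12 female, Lot 12 male, Lot 7 male or Lot 8 male line, 1 without Lot 11 female, 23 without Lot 11 male and 102 without Lot 7 female, and over replicate numbers left out in turn it ran from 3 (number 2) to 36 (number 1).

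The sets also differed in exon length and gene type, which the rule did not use, and in level, on which genes were filtered. These are described without a test. The higher genes had a median exon length of 5169.5 bases, the lower genes 3180 bases, and all genes tested 4349.5 bases. The lower genes had a median level of 35.5 CPM, against 13.02 CPM in the higher genes and 13.7 CPM over all. Protein-coding genes made up 98% of the higher set, 86.0% of the lower set and 92.3% of all genes tested.

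Fxyd6, a small regulator of the sodium pump on chromosome 9 (GRCm38 45370185 to 45396159, plus strand), had the widest gap. Its level was 50.0 CPM (Lot 12 female) and 12.4 CPM (Lot 12 male), against 0.087 to 0.714 CPM in the other lines, with a median of 0.296. Its log2 fold change was 6.24 ± 0.61 (SE), and 5.17 with the Lot 12 female line left out. In single libraries it had 9.25, 27.0 and 57.5 CPM as lowest, median and highest of Lot 12, against 0, 0.166 and 1.93 CPM in the 24 others. Every Lot 12 library thus lay above every other library, and the female line lay about 4 times as high as the male. The median of the other 24 libraries lay below the level of a count of 3, 0.403 to 0.688 CPM. The size of the fold change is therefore uncertain.

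**Figure D1:**
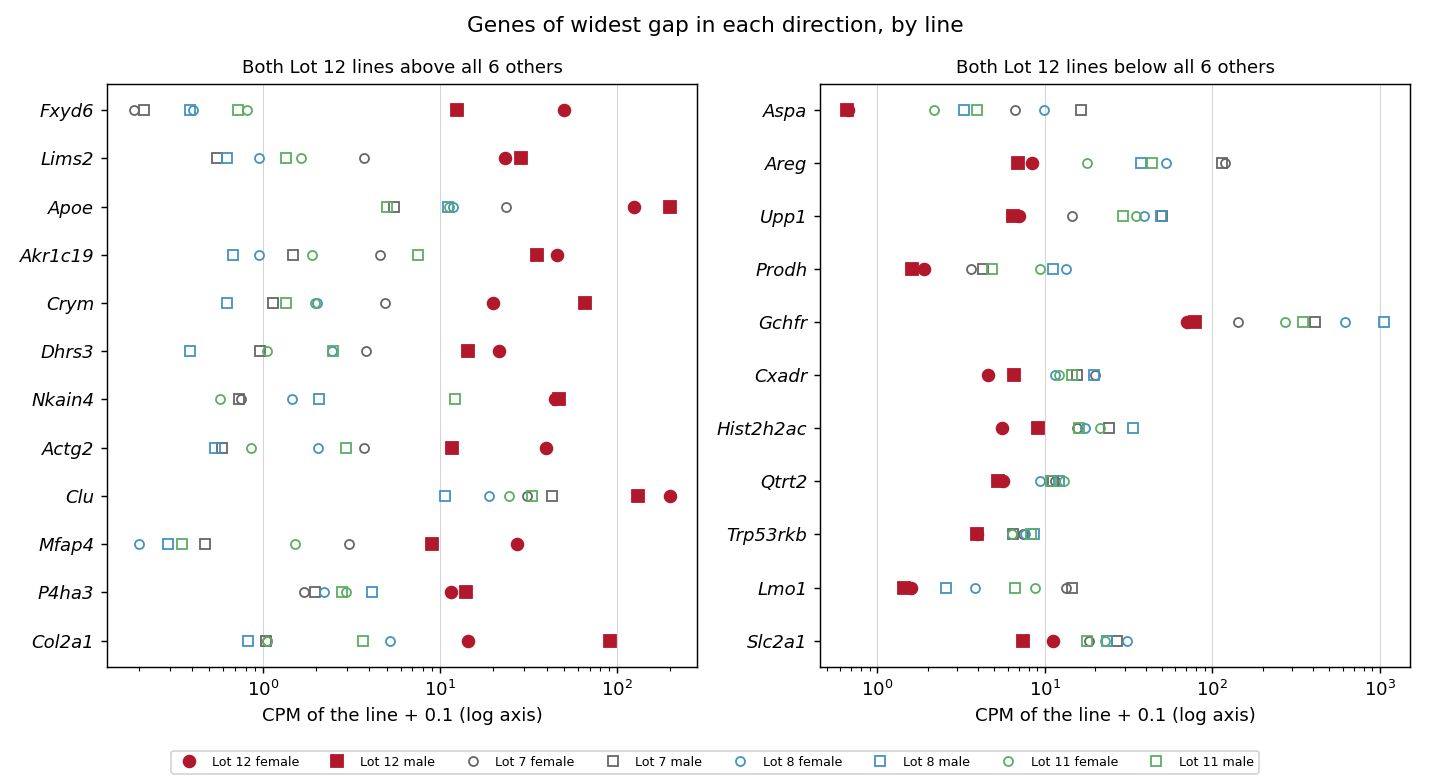
Level of the 12 higher (left) and 11 lower (right) genes of widest gap reported here in each of the 8 lines, as CPM + 0.1 on a log axis; filled red marks are the 2 Lot 12 lines and open marks the 6 lines of lots 7, 8 and 11. The marks of Lot 12 and of the other lines do not overlap in any row, because the genes were chosen for that ordering, and Fxyd6 has the widest gap.

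Among the other leading genes, Apoe and Clu are tied to lipoproteins and Dhrs3 to retinoids. Apoe, the lipoprotein that astrocytes secrete, had 125 and 200 CPM in the Lot 12 female and male lines, against 4.95, 11.1 and 23.6 CPM as lowest, median and highest of the other lines. Its libraries of Lot 12 ran from 28.9 to 462 CPM, with the highest value of each line in the library numbered 2, and overlapped the others, which ran from 4.06 to 58.7 CPM. The log2 fold change of Apoe was 4.05 ± 0.45 with all libraries and 2.14 without those numbered 2. Clu, a secreted chaperone found with apolipoproteins, had 199 and 131 CPM, against 10.6 to 42.8 CPM, and its libraries did not overlap. Dhrs3, which reduces retinaldehyde, had 21.5 and 14.4 CPM, against 0.29 to 3.74 CPM. The list of retinoid and lipid binding genes had 4 of 10 tested members higher (40%) and 0 lower, against 9.01% and 10.3% over all genes. As a whole the list overlapped, with sums of 942 to 1352 CPM in Lot 12 lines and 649 to 2275 CPM in the others. Among its higher members, Aldh1a3, which makes retinoic acid, had 23.2 and 11.0 CPM, against 0.956 to 7.80 CPM. The receptor Rarg had 25.1 and 29.4 CPM, against 12.4 to 20.3 CPM. Rarb was the other higher member.

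Of the remaining leading genes, Akr1c19, an aldo-keto reductase, had 45.6 and 35.2 CPM in Lot 12, against 0.58 to 7.47 CPM. Nkain4, which interacts with the sodium pump, had 44.7 and 46.8 CPM, against 0.476 to 12.1 CPM. Lims2, an adaptor of the integrin-linked kinase complex, had 23.3 and 28.7 CPM, against 0.45 to 3.65 CPM. These 3 genes had similar levels in the female and male lines, whereas Crym and Col2a1 did not. Crym, a thyroid hormone binding protein, had 19.7 CPM (female line) and 65.7 CPM (male line), against at most 4.78 CPM elsewhere. Col2a1, the main collagen of cartilage, had 14.3 and 91.4 CPM, against at most 5.13 CPM.

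Contractile and smooth muscle genes were among the higher ones. In this list 9 of 14 tested genes were higher in both Lot 12 lines and 0 were lower, with a median log2 fold change over the 14 of 1.48, against 9.01% and 0.00 over all genes. The higher members were Actg2, Cald1, Cnn2, Lmod1, Myl9, Mylk, Tagln, Tpm1 and Tpm2. They encode a smooth muscle actin, actin-binding proteins of contractile filaments, a myosin light chain and its kinase. The other 5 tested members overlapped: Acta2, Cnn1, Itga7, Smtn and Srf, which encodes serum response factor. Summed over the list, Lot 12 lines held 21557 to 24516 CPM, against 6782 to 17325 CPM. In bulk RNA a larger share of cells that express such genes and more RNA per cell cannot be told apart.

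The promoters of Myl9 and Cnn2 are shown because both genes belong to this list and each holds a CArG box, marked in capitals, in the 250 bases before its RefSeq start (GRCm38.p6). Both are on the plus strand, Myl9 at chr2:156775214-156775417 and Cnn2 at chr10:79988350-79988553, and the bases from 250 to 47 before the start are printed.
Myl9: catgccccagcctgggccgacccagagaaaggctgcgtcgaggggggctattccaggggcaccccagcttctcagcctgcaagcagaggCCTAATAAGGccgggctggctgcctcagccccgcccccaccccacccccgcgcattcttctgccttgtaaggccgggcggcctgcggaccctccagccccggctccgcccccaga
Cnn2: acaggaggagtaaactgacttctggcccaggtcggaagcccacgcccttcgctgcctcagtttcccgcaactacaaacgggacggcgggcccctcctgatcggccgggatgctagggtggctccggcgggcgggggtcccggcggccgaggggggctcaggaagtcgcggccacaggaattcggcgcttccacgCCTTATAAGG
The box begins 161 bases before the start of Myl9 and 56 bases before that of Cnn2. Of 27025 genes in the RefSeq promoter table, 439 (1.62%) hold a CArG box in this window, read on both strands. The table matched 7 of the 9 higher contractile genes and 759 of the 1000 higher genes, under 80% of each, so shares of motifs over these sets are void and none is given. The other matched contractile genes, Cald1, Lmod1, Mylk, Tpm1 and Tpm2, held no CArG box in this window. A match describes the letters and not a site in use.

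Lmod1, which starts actin filaments in smooth muscle, had 64.6 and 83.5 CPM in the Lot 12 female and male lines, against 2.77, 4.65 and 24.7 CPM as lowest, median and highest of the others. Its Lot 12 libraries ran from 52.7 to 93.4 CPM and the others from 0.234 to 28.2 CPM, without overlap. Tagln, which encodes the actin-binding protein SM22, had 1967 and 1672 CPM in Lot 12, against 301 to 1117 CPM, and its libraries did not overlap either. Myl9 had 632 and 1299 CPM, against 49.5 to 383 CPM, but its libraries overlapped, from 440 to 1343 CPM in Lot 12 and from 38.1 to 523 CPM in the others. Actg2 had 39.7 and 11.5 CPM, against 0.435 to 3.65 CPM, and ranged from 4.90 to 86.3 CPM over the 6 Lot 12 libraries.

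**Figure D2:**
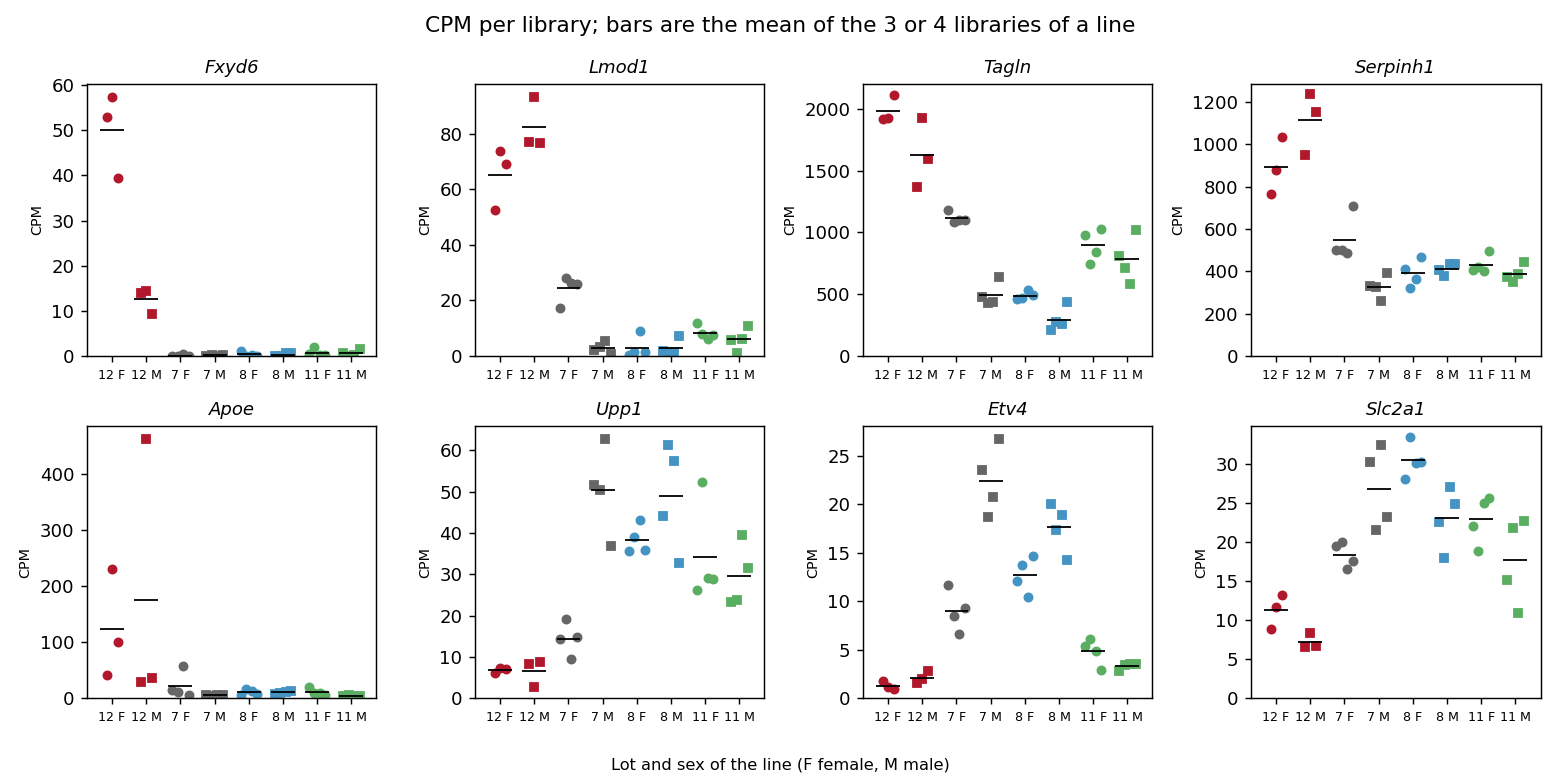
CPM in every library for 8 genes, with female lines as circles and male lines as squares, Lot 12 at the left in red; bars are the mean of a line's libraries. Fxyd6, Lmod1, Tagln and Serpinh1 lie above all other libraries in Lot 12, the highest Apoe values come from the Lot 12 libraries numbered 2, and Upp1 and Etv4 lie below all other libraries in Lot 12.

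Genes of the collagen matrix were also among those higher in Lot 12. Of 23 tested genes for fibrillar collagens and their crosslinking, 11 were higher (47.8%) and 0 lower, with a median log2 fold change of 1.05. Over all genes 9.01% were higher and 10.3% lower, with a median of 0.00. Serpinh1, the collagen chaperone of the endoplasmic reticulum, had 883 and 1140 CPM, against 331, 408 and 551 CPM as lowest, median and highest of the others, and its libraries did not overlap. Lox, which crosslinks collagen, had 232 and 191 CPM, against 9.14 to 101 CPM. Col3a1, a fibrillar collagen chain, had 14.7 and 14.6 CPM, against 1.11 to 5.87 CPM. P4ha3, which hydroxylates collagen prolines, had 11.5 and 13.9 CPM, against 1.61 to 4.06 CPM. Mfap4, a microfibril protein outside this list and among the 12 higher genes of widest gap, had 27.1 and 8.98 CPM, against 0.101 to 2.96 CPM. In the list, Col5a2, Col5a3, Col11a1, Fbn1, P4ha1, Postn and Sparc were the other higher members. The remaining 12 overlapped, among them Col1a1, Col1a2 and Fn1. Of 12 tested mesenchymal transition genes, Cdh2 and Zeb1 were higher (16.7%) and 0 were lower, with a median log2 fold change of -0.11.

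Among 15 tested basement membrane genes, 6 were higher (40%) and 0 lower, against 9.01% and 10.3% over all genes. Their median was 0.90. Col4a1, the main basement membrane collagen chain, had 262 and 469 CPM in the Lot 12 female and male lines, against 150 to 205 CPM. Hspg2, which encodes perlecan, had 28.1 and 30.6 CPM, against 17.8 to 24.8 CPM, and Lamb1, a laminin chain, had 64.7 and 65.2 CPM, against 37.1 to 64.5 CPM, so that Lamb1 only just passed the rule. Matrix proteases and their inhibitors had 5 of 20 higher (25%) and 0 lower. Timp2 and Timp3, inhibitors of matrix metalloproteinases, had 535 and 552 CPM against 271 to 405 CPM, and 86.7 and 99.1 CPM against 10.8 to 69.3 CPM. Mmp14, a membrane-bound metalloproteinase that these inhibitors act on, had 70.1 and 82.1 CPM, against 28.9 to 50.5 CPM. Proteases and inhibitors were thus both among the higher members.

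Adhesion receptors and pathways tied to matrix also had higher and 0 lower members. Over all genes 9.01% were higher and 10.3% lower. Of 18 integrins and adhesion receptors, 6 were higher (33.3%) and 0 lower. They were led by Itga11, the collagen-binding integrin chain, at 20.7 and 13.5 CPM against 0.15 to 5.20 CPM. Of 18 genes of the TGF-beta and BMP pathway, 6 were higher (33.3%) and 0 lower. Among its ligands, Bmp4 had 39.2 and 63.0 CPM, against 11.3 to 28.9 CPM, and Tgfb2 had 44.2 and 78.6 CPM, against 10.7 to 37.8 CPM. Thbs1, which can activate latent TGF-beta, had 645 and 590 CPM, against 234 to 476 CPM, and the inhibitor Smad7 had 24.1 and 18.5 CPM, against 11.8 to 16.2 CPM. Smad3 and Smad6 were the other higher members. Of 19 YAP targets, 4 were higher (21.1%) and 0 lower. Ccn2, a matricellular protein, had 1213 and 2080 CPM, against 195 to 1071 CPM. Amotl2, Crim1 and Tead1 had log2 fold changes of 0.62, 0.81 and 0.60.

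Growth factor systems gave both directions. The insulin-like growth factor list had 5 of 15 higher and 0 lower, among them Igfbp7 at 35.9 and 39.9 CPM against 9.08 to 30.5 CPM and Irs2, the receptor's adaptor, at 62.6 and 54.1 CPM against 29.4 to 45.3 CPM. Receptor tyrosine kinases had 5 of 16 higher (31.25%) and 2 lower (12.5%), against 9.01% and 10.3% over all genes. The higher receptors included Pdgfrb, at 46.7 and 60.7 CPM against 4.03 to 33.3 CPM, Ddr1, a collagen receptor, at 46.02 and 37.5 CPM against 14.5 to 27.7 CPM, and Egfr, at 34.5 and 11.9 CPM against 3.43 to 9.61 CPM. Epha2 was lower, at 6.22 and 8.14 CPM against 11.2 to 23.8 CPM, and Tyro3 was the other lower receptor. Of 24 secreted growth factors, 3 were higher (12.5%) and 4 lower (16.7%), shares not far from those over all genes. Ptn, a growth factor of developing brain, had 20.9 and 18.0 CPM, against 0.869 to 8.61 CPM, and Bdnf had 79.0 and 82.6 CPM, against 14.04 to 57.2 CPM. Areg, a ligand of the receptor that Egfr encodes, was lower, at 8.23 and 6.80 CPM against 17.8, 48.3 and 119 CPM as lowest, median and highest of the others. The receptor Egfr was therefore higher and its ligand Areg lower in the same 2 lines.

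**Figure D3:**
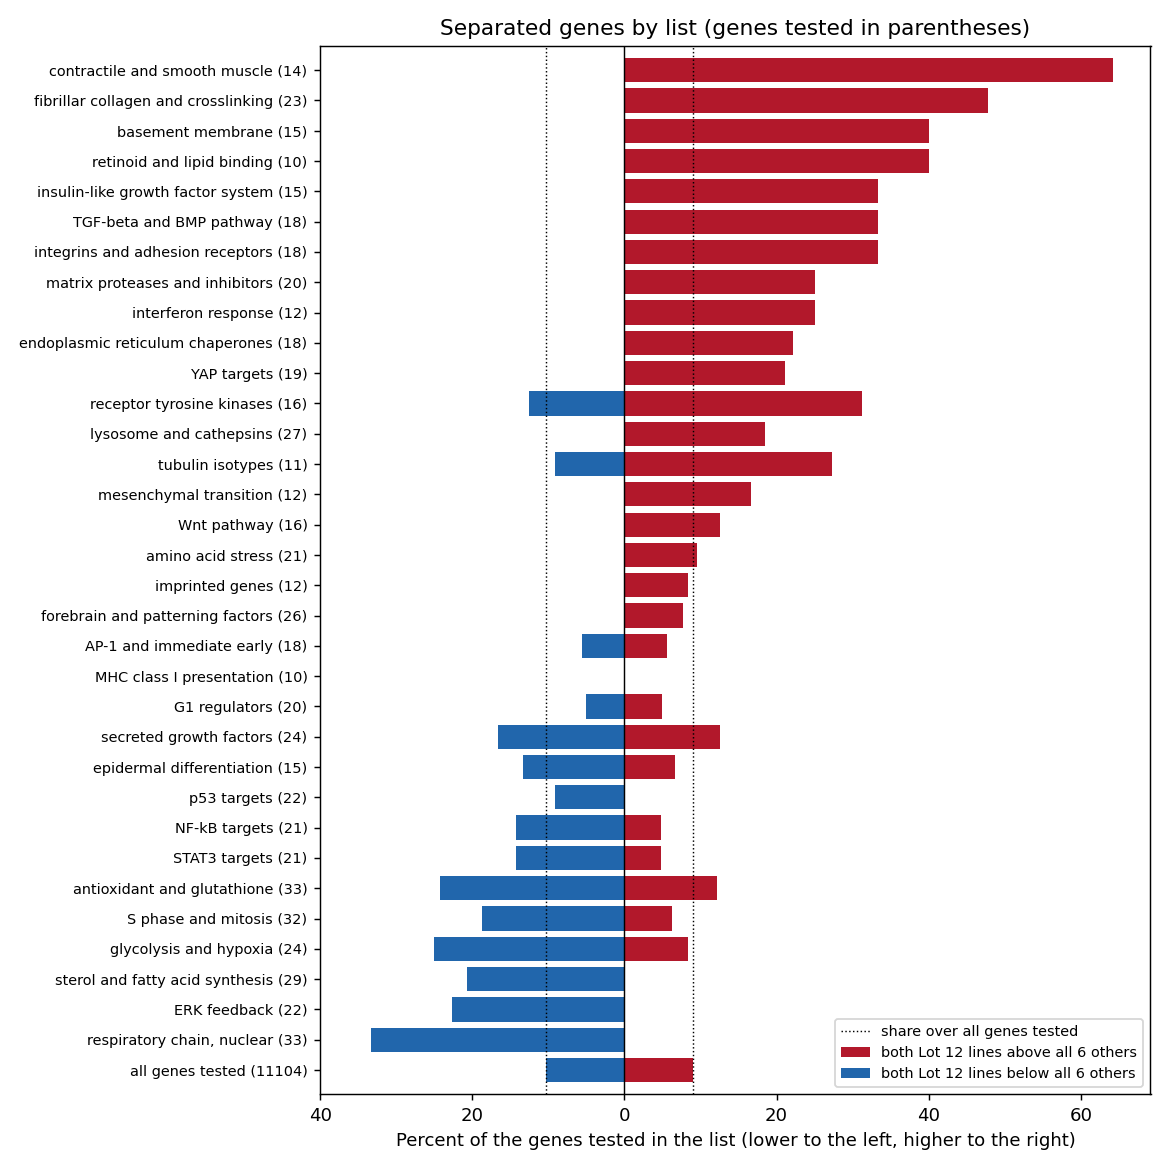
Share of the tested genes of each list that were higher (red, to the right) or lower (blue, to the left) in both Lot 12 lines than in all 6 others, with the number tested in parentheses; dotted lines mark the shares over all 11104 genes, 9.01% and 10.3%. Of the lists drawn, each with at least 10 genes tested and without marker lists and families grouped by symbol, the contractile and collagen lists have the largest shares of higher genes and the respiratory chain list the largest share of lower genes.

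Genes that respond to ERK were lower where they were separated. In the ERK feedback list 5 of 22 tested genes were lower and 0 higher (22.7% lower, against 10.3% over all genes), with a median log2 fold change of -0.24. Etv4, an ETS transcription factor induced by ERK, had 1.34 and 2.23 CPM in Lot 12, against 3.36, 10.9 and 22.6 CPM as lowest, median and highest of the others. Its highest Lot 12 library, at 2.84 CPM, lay just below the lowest of the 24 others, also 2.84 CPM to 3 digits. Fosl1, an AP-1 subunit stabilised by ERK, had 116 and 109 CPM, against 164 to 245 CPM. Spry4 and Spred2, inhibitors of RAS signalling, and Epha2 were the other lower members, while 17 members overlapped. The wider list of AP-1 and immediate early genes had 1 higher gene, Klf6, and 1 lower gene, Fosl1, of 18 (5.56% each).

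NF-kB and STAT3, which the series title names, were represented by lists of 21 tested targets each. Each list had 1 gene higher and 3 lower, 4.76% and 14.3%, against 9.01% and 10.3% over all genes. For NF-kB the lower genes were Nfkb2, at 23.7 and 21.9 CPM against 23.8 to 46.6 CPM, Traf2, at 33.6 and 35.7 CPM against 39.5 to 47.1 CPM, and Rel, and the higher gene was the feedback inhibitor Tnfaip3. For STAT3 the lower genes were Fosl1, Birc5 and the feedback inhibitor Socs3, and the higher gene was Osmr, a cytokine receptor chain. Counts of 1 and 3 are near the background for lists of this size. Of 12 tested interferon response genes 3 were higher and 0 lower, including Ifi27, at 43.6 and 45.8 CPM against 4.69 to 21.6 CPM, and Bst2, at 14.4 CPM in both lines against 2.21 to 13.3 CPM, while 0 of 10 genes of MHC class I presentation were separated.

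The lower genes of widest gap had varied roles. Aspa, which splits N-acetylaspartate, had 0.566 and 0.558 CPM in Lot 12, against 2.06, 5.19 and 16.3 CPM as lowest, median and highest of the others. Its values in single Lot 12 libraries, 0 to 1.63 CPM, reach the level of a count of 3. Upp1, uridine phosphorylase (chromosome 11, GRCm38 9118103 to 9136170, plus strand), had 6.89 and 6.36 CPM, against 14.4 to 50.2 CPM, and its libraries ran from 2.73 to 8.80 CPM in Lot 12 and from 9.60 to 62.8 CPM in the others, without overlap. Prodh, which degrades proline, had 1.80 and 1.51 CPM, against 3.52 to 13.3 CPM. Gchfr, a regulator of tetrahydrobiopterin synthesis, had 70.9 and 78.4 CPM, against 143 to 1055 CPM. Qtrt2, which modifies tRNA, had 5.50 and 5.19 CPM, against 9.26 to 12.97 CPM, and its libraries did not overlap. Others of widest gap were Areg, Cxadr, Hist2h2ac, Trp53rkb, Lmo1 and Slc2a1.

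Some genes of energy metabolism were lower, while most of those tested overlapped. Slc2a1, the glucose transporter GLUT1, had 11.1 and 7.30 CPM in Lot 12, against 17.8, 23.04 and 30.8 CPM as lowest, median and highest of the others, and its libraries overlapped between 11.0 and 13.2 CPM. The glycolysis and hypoxia list had 6 of 24 genes lower (25%) and 2 higher (8.33%), with a median of -0.23, and 16 overlapped. Over all genes these shares were 10.3% and 9.01%. Gapdh, the glycolytic dehydrogenase, had 1780 and 1879 CPM, against 2050 to 2285 CPM, a log2 fold change of -0.23 ± 0.09. Adm, a peptide induced in hypoxia, went the other way, at 11.3 and 23.3 CPM against 0.629 to 8.999 CPM.

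Nuclear genes of the respiratory chain had 11 of 33 lower (33.3%) and 0 higher, with 22 overlapping, and their median log2 fold change was -0.12. Over all genes 10.3% were lower and 9.01% higher. Cycs, cytochrome c, had 532 and 556 CPM, against 621 to 808 CPM, Sdhb, a complex II subunit, had 265 and 259 CPM, against 307 to 371 CPM, and Uqcrfs1, the Rieske protein of complex III, had 147 and 158 CPM, against 169 to 202 CPM. All 3 differences were under 0.5 on the log2 scale. The mitochondrially encoded gene mt-Nd4, a complex I subunit, lay on the higher side by the smallest of margins, at 568 and 522 CPM against 404 to 522 CPM. Its log2 fold change of 0.30 was 0.092 without the libraries numbered 4, whose mitochondrial share was lowest.

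Sterol and fatty acid synthesis had 6 of 29 lower and 0 higher, with a median of -0.26. Elovl6, a fatty acid elongase, had 13.6 and 17.8 CPM, against 19.4 to 39.2 CPM. Acly, which makes cytosolic acetyl-CoA, had 69.2 and 57.7 CPM, against 75.0 to 89.0 CPM. The antioxidant list had 8 of 33 lower (24.2%) and 4 higher (12.1%), against 10.3% and 9.01% over all genes. Gsr, glutathione reductase, had 10.3 and 11.9 CPM, against 15.7 to 24.1 CPM, and Sod1, the cytosolic superoxide dismutase, had 321 and 309 CPM, against 374 to 577 CPM. Gpx7, a peroxidase of the endoplasmic reticulum that aids protein folding, was on the higher side at 23.4 and 10.3 CPM, against 0.261 to 4.41 CPM. Lysosomal genes had 5 of 27 higher and 0 lower, by small amounts: Lamp1, a membrane protein, had 230 and 256 CPM, against 159 to 224 CPM.

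Cell cycle genes gave mixed counts. Of 32 genes of S phase and mitosis 6 were lower (18.75%) and 2 higher (6.25%), against 10.3% and 9.01% over all genes. The sign of their median log2 fold change, -0.052, turned when library totals alone set the scale. Aurka, a mitotic kinase, had 59.7 and 57.3 CPM, against 70.7 to 102 CPM, and Birc5, survivin, had 428 and 383 CPM, against 478 to 667 CPM. Cdc20, an activator of the anaphase-promoting complex, had 192 and 195 CPM, against 215 to 296 CPM, but its log2 fold change of -0.39 became 0.066 without the libraries numbered 2. Mki67, the proliferation marker, was higher, at 58.8 and 58.4 CPM against 33.0 to 53.05 CPM, as was the cyclin Ccnd2, at 437 and 335 CPM against 120 to 308 CPM. Of 22 p53 targets 2 were lower (9.09%, against 10.3% over all genes) and 0 higher, a count near the background. Cdkn1a, an inhibitor of cyclin-dependent kinases, had 6.89 and 6.97 CPM, against 8.13 to 55.8 CPM. Mdm2, which degrades p53, had 26.8 and 32.1 CPM, against 32.2 to 40.4 CPM. Hmga2, a chromatin protein of embryonic and tumour cells, had 44.6 and 28.9 CPM, against 63.1 to 206 CPM.

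Markers of other cell types moved with some of these groups. Of 9 pericyte markers 3 were tested: Pdgfrb and Mcam were higher, and Cspg4 overlapped with a negative log2 fold change. Centred on the 8 lines, mean log2 CPM over these 3 was 0.77 (Lot 12 female) and -0.39 (Lot 12 male), against -0.77 to 0.65. The list thus overlapped by this mean, while its summed level was 84.8 to 94.9 CPM in Lot 12 lines, against 30.1 to 44.2 CPM. Its defining markers Kcnj8, Abcc9, Anpep and Vtn were at 0 in all 8 lines, and Rgs5 was at 0 in Lot 12. Of 12 markers of meningeal fibroblasts 5 were tested and 0 separated, with sums of 259 to 745 CPM in Lot 12 and 56.6 to 540 CPM in the others. Of 10 neuronal markers 3 were tested and 1 was higher: Map2, a microtubule protein of dendrites, at 18.5 and 16.6 CPM against 3.37 to 8.90 CPM. Oligodendrocyte, endothelial, Schwann cell and neural progenitor lists had 0 separated genes, and the microglial list had 1, Tmem119, with sums of 9.42 to 11.3 CPM in Lot 12 and 7.05 to 10.7 CPM in the others. The part of any such cells in the contractile and matrix lists was not tested.

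The lower genes were unevenly spread over chromosomes, which the rule did not use. Chromosomes 3, 4 and 11 held 425 of the 1142 lower genes (37.2%), among 2174 genes tested there. On chromosome 11, 184 of 907 genes were lower (20.3%) and 35 higher (3.86%), against 10.3% and 9.01% over all genes. Chromosome medians of log2 CPM, centred on the 8 lines, were taken only over the more abundant genes, averaging 4 or more in log2 CPM. Of the genes tested, 5090 reached this level, 441 of them on chromosome 11. Their median on chromosome 11 was -0.11 and -0.19 in the Lot 12 female and male lines, against 0.00 to 0.14 in the others. Chromosome 4 had 19.4% lower, with medians of -0.14 and -0.12 in Lot 12 against -0.04 to 0.13, and chromosome 3 had 18.6% lower, with medians of -0.09 and -0.17 against 0.00 to 0.10. Both Lot 12 medians lay below all 6 others on 7 of 20 chromosomes, and above all 6 on 0. Chromosomes 2, 5, 6 and X were among the 7 by narrow margins. The nearest Lot 12 and other medians were -0.0607 and -0.0461 on 2, and -0.0736 and -0.0698 on 5. They were -0.0148 and -0.0105 on 6, and -0.0230 and -0.0154 on X.

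Higher genes were most frequent on chromosome 15, where 76 of 429 were higher (17.7%). There the Lot 12 lines did not move alike. The median, again over the more abundant genes only, was -0.02 (female line) and 0.29 (male line), against -0.15 to 0.05 in the others. Chromosome 10 showed the same split, with 13.1% of genes higher and medians of -0.09 (female line) and 0.26 (male line), against -0.16 to 0.09. So did chromosome 8, with 13.1% higher and medians of -0.03 (female line) and 0.17 (male line), against -0.12 to 0.11. These shifts are under 0.3 on the log2 scale in every Lot 12 line.

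**Figure D4:**
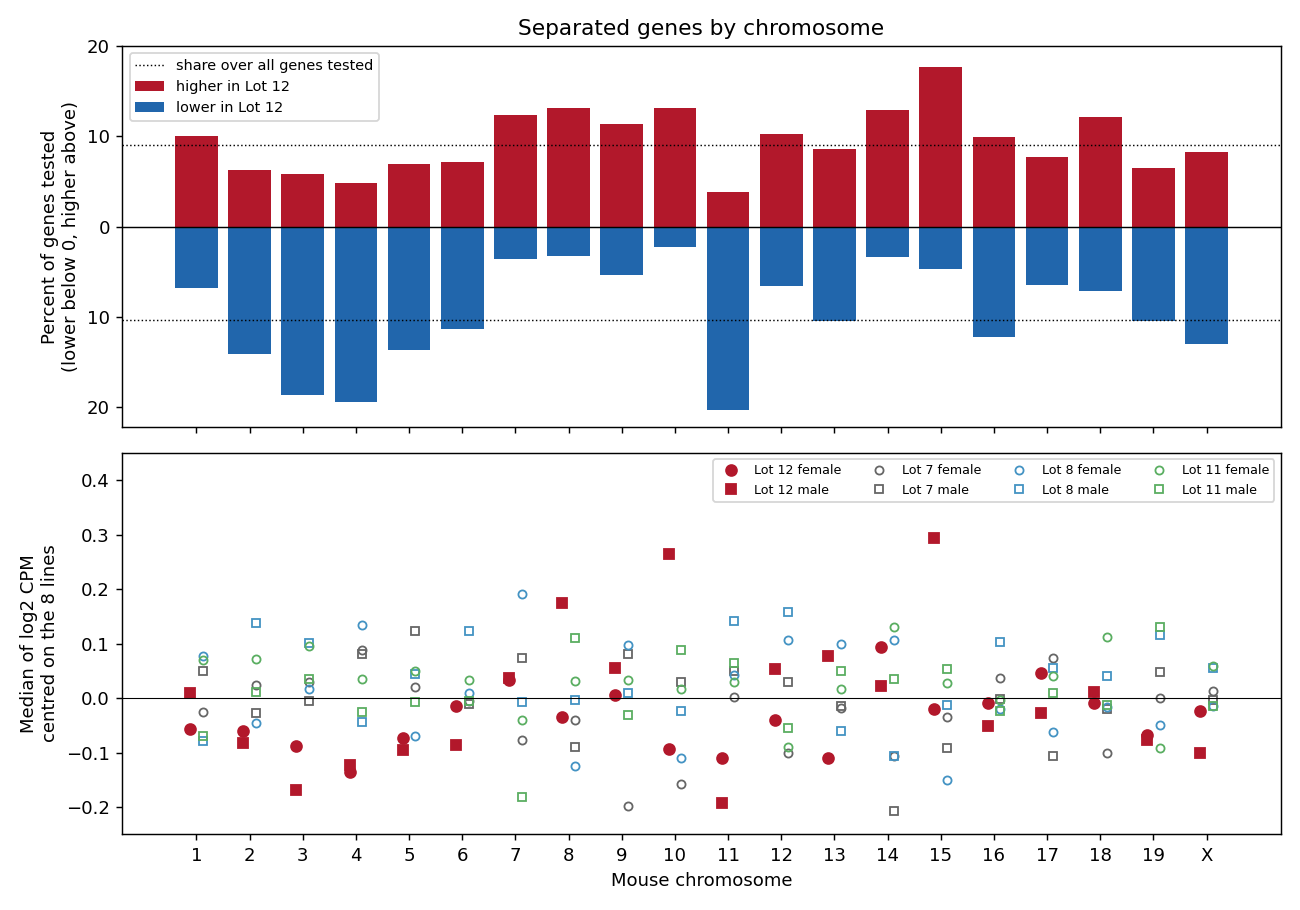
Upper panel, share of tested genes higher (above 0) and lower (below 0) in both Lot 12 lines on each chromosome. Dotted lines mark the shares over all genes. Lower panel, median log2 CPM of each chromosome, centred on the 8 lines, over genes averaging 4 or more in log2 CPM. Filled red marks are the Lot 12 lines. Chromosomes 3, 4 and 11 have the largest lower shares, and on chromosomes 10 and 15 the male Lot 12 line stands above the female.

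The female and male lines of Lot 12 were compared with each other, a contrast that the rule does not use directly, although it narrows it: a gene can be separated only where both lines lie on the same side of the others. The test was edgeR's quasi-likelihood fit to the 30 libraries with Benjamini-Hochberg adjustment, and its p-values measure the spread between libraries of a line, which may be technical. It called 428 of 11104 genes (3.85%), 193 higher and 235 lower in the female line, or 237 and 187 with library totals alone as the scale. Single libraries of Lot 12 moved this count: it was 90 higher and 114 lower without male library 1, 119 and 129 without male library 2, 334 and 373 without male library 3, and 132 and 139 without female library 3. Among the separated genes it called 30 of 2142 (1.40%), 21 from the higher and 9 from the lower set. The 6 Lot 12 libraries alone, with replicate number as a block, gave 690 called genes (6.21%), of which 79 were separated. The median absolute log2 difference between the 2 lines was 0.155 in the separated and 0.320 in the overlapping genes, which the rule itself makes smaller.

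Wincr1, a long noncoding RNA on chromosome 4 (GRCm38 89050308 to 89084614, plus strand), had the smallest p among separated genes with a mean of at least 5 CPM. It had 24.4 CPM (female line) and 4.40 CPM (male line), a log2 difference of 2.46 (edgeR adjusted p = 2.1e-06), and both lines lay below the 28.9 to 60.8 CPM of the others. Fmod, a collagen-binding proteoglycan, had 26.0 and 6.63 CPM, a log2 difference of 2.01 (edgeR adjusted p = 0.0026), with the other lines at 1.40 to 5.75 CPM. Pld3, a lysosomal exonuclease, had 73.2 and 30.2 CPM (log2 1.34, edgeR adjusted p = 0.0040). Myl6, a myosin light chain, went the other way, with 4491 and 6326 CPM (log2 -0.48, edgeR adjusted p = 0.0032). Of the leading genes, Crym and Col2a1 were lower in the female line, by log2 differences of -1.68 and -2.64 (edgeR adjusted p = 0.011 and 0.010), and so was Myl9, at -0.98 (edgeR adjusted p = 0.043). For Fxyd6 the log2 difference of 2.00 missed the threshold (edgeR adjusted p = 0.055). It passed with replicate number as a block, in the 30 libraries (edgeR adjusted p = 0.0497) and in the 6 Lot 12 libraries alone (edgeR adjusted p = 8.65e-06).

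**Figure D5:**
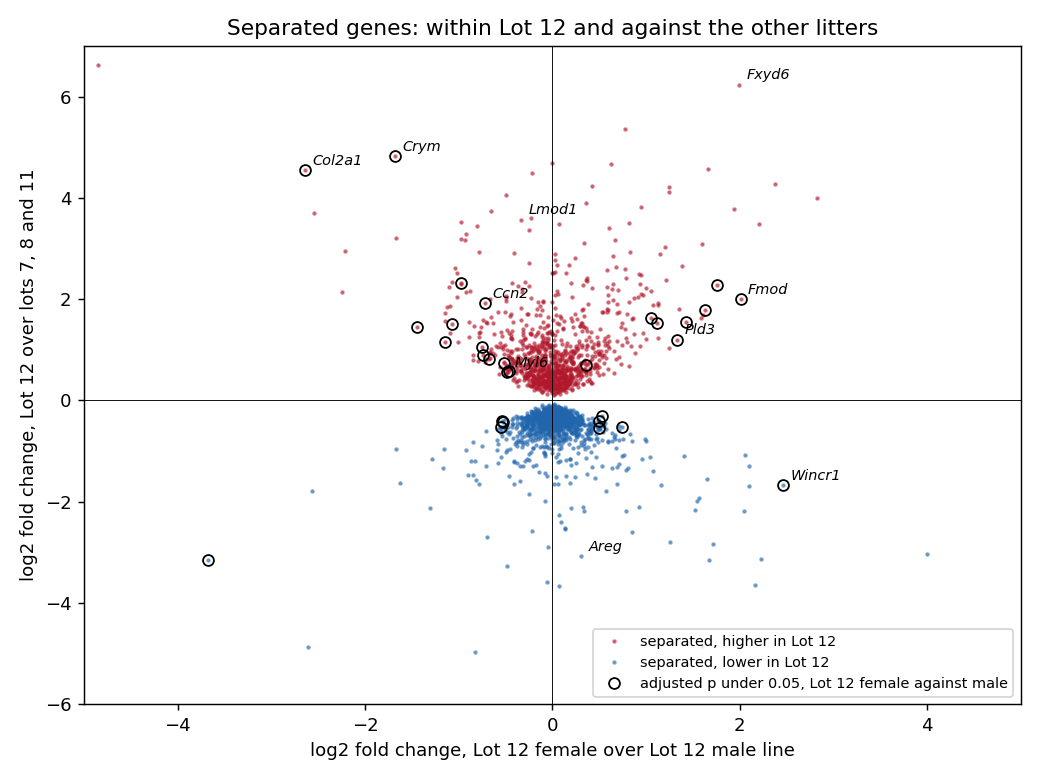
Log2 fold change of the 2142 separated genes between the Lot 12 lines (female over male, horizontal) and of Lot 12 over lots 7, 8 and 11 (vertical); open circles mark the 30 genes called between female and male, and 2 genes lie outside the axes. Most separated genes lie near 0 on the horizontal axis, and Wincr1, Fmod, Crym and Col2a1 are circled away from it.

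Lot 6 was not used by the rule, and its lines are given beside Lot 12 on a scale computed over all 10 lines. Its comparison with lots 7, 8 and 11 would share those lines, so only values are shown. Tagln had 2260 CPM in the Lot 6 female and 459 CPM in the Lot 6 male line, Lmod1 had 166 and 5.62 CPM, and Myl9 had 3267 and 232 CPM. For these contractile genes the Lot 6 female line was above both Lot 12 lines and the Lot 6 male line was within the range of lots 7, 8 and 11. Apoe had 544 and 12.7 CPM in the Lot 6 female and male lines, which gives the same picture. Fxyd6, at 0.504 and 0.795 CPM, Crym, at 0.595 and 1.08 CPM, and Serpinh1, at 463 and 432 CPM, were lower in both Lot 6 lines than in both Lot 12 lines. Upp1 had 2.47 and 58.2 CPM and Areg 14.8 and 105 CPM, so that only Upp1 in the female line was below both Lot 12 lines.

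The rule's edge is narrow. Just inside it, Tspan3, a tetraspanin, had 292 and 228 CPM in Lot 12, against at most 228 CPM in the others, with a gap of 0.00, and Iqcb1, a ciliary protein, had 6.99 and 6.02 CPM, against at least 6.99 CPM. The other genes just inside were mt-Nd4, higher, and the haem transporter Slc48a1, lower. Just outside it, Efr3a had 43.0 and 57.5 CPM in Lot 12, against at most 43.0 CPM in the others, and Gas8 had 36.6 and 37.5 CPM, against at least 37.5 CPM. Aga, on the higher side, and Ufl1, on the lower side, were the other genes just outside. Genes on either side of the edge thus had values equal to 3 digits in the nearest Lot 12 and other line.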

How the data were processed

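The deposited table held raw counts per gene, per the labels, with 1 column for each of the 36 BRB-seq libraries. Reads had been handled with Subread 2.0.2, STAR 2.7.6a and cutadapt 2.10 on GRCm38, per the submitters' processing notes, which give no order. The primers carried unique molecular identifiers, but whether the counts are of reads or of molecules, and how reads that match several genes were counted, are not given in the sources used here. Counts of Hist2h2ac, Tubb2a, Tubb2b, Tubb5, Gapdh, Gstm1, Actg2, Atp5c1 and Pgam1, which have near-identical copies or pseudogenes, are therefore uncertain, and so are overlapping genes, since use of strand is not stated. Of the table's IDs, 45229 matched GENCODE M21, and the 849 others held 0.0295% of counts.

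Libraries of a line were summed, TMM-scaled by edgeR 4.0.16 (R 4.3.3) and expressed as CPM. Genes with a mean of at least 1 CPM over the 8 lines were compared. Fold changes with SE come from edgeR's quasi-likelihood fit to line sums with sex as a covariate, and the contrast within Lot 12 from the fit to 30 libraries with 1 coefficient per line and Benjamini-Hochberg adjustment at 0.05. DESeq2 1.42.0 and limma 3.58.1 gave alternatives. Permutation tests used scipy, and scripts were tested on simulated data. Intervals and floors would cover counting error only.

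In Lot 12 the replicate numbers paired the female and male libraries: the deviations of same-numbered libraries from their line means correlated at 0.377 to 0.527 in 3 of 3 pairs, and those of other pairs at -0.438 to -0.096. Libraries of a line differed by more than counting error in all 42 pairs of libraries (chi-square per degree of freedom 5.47 to 22.3). Whether replicates came from separate cultures is not stated.

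The members and gene lists were chosen with earlier results of these data known. Genes named with values had a mean of at least 5 CPM and were the 12 of widest gap in each direction, up to 4 separated members of each list by gap, the 2 nearest the rule's edge on either side of it in each direction, the 4 separated genes of smallest p between the Lot 12 lines, and Nf1, Trp53, Xist and Ddx3y. Other members are named to complete a list's count, or as cell type markers. A gene that this rule names is not reported here.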

Additional observations from a re-analysis of the deposited data

Results flagged for a closer look

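Among the 6 lines of lots 7, 8 and 11, 8 of the 128 genes examined had 1 line whose distance to the nearest other line exceeded Dixon's 95% critical value for 6 values, and chance flags about 1 in 20 groups. The line far from the rest lay toward the Lot 12 lines for 5 genes (Nkain4, Thbs1, Lamp1, Hspg2 and Lfng) and away from them for Mdm2, Traf2 and Gsr, and its value is given here against the range of the other 5 lines. The Lot 11 male line was high for Nkain4, at 12.1 CPM against 0.476 to 1.98 CPM. The Lot 7 female line was high for Thbs1, at 476 CPM against 234 to 288 CPM, and for Lamp1, at 224 CPM against 159 to 178 CPM. The Lot 8 female line was high for Hspg2, at 24.8 CPM against 17.8 to 20.1 CPM. The Lot 8 male line was low for Lfng, a glycosyltransferase that modifies Notch, at 4.98 CPM against 6.26 to 6.74 CPM, and high for Mdm2, at 40.4 CPM against 32.2 to 35.1 CPM. The Lot 7 male line was high for Traf2, at 47.1 CPM against 39.5 to 42.2 CPM. The Lot 11 male line was also high for Gsr, at 24.1 CPM against 15.7 to 18.2 CPM.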

How the results depend on the processing

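The counts of 1000 higher and 1142 lower genes stayed within 1.5 times under every alternative except the stricter rule that all 6 Lot 12 libraries lie beyond all 24 others, which gave 63 and 34. With the libraries of 1 number left out, the genes shared with the full set were 809 higher and 907 lower (number 1), 693 and 777 (number 2), 619 and 713 (number 3), and 836 and 893 (number 4). The edgeR count on line sums, 12 higher and 0 lower, became 110 and 13 with no filter on level, 273 and 185 with DESeq2, 666 and 361 with limma voom and the line as a random block, 1566 and 1303 with libraries as units, and 1617 and 1413 with libraries and a replicate block. Without sex it was 25 higher. Libraries of 1 line are not separate litters, and fits to libraries count them as such. With 1 line or 1 replicate number left out the counts ranged from 0 to 102 higher and from 0 to 15 lower. Between the Lot 12 lines, 193 higher and 235 lower genes became 53 and 49 in the 6 Lot 12 libraries alone, 309 and 381 in the same libraries with a replicate block, and 90 to 334 and 114 to 373 with 1 library left out. The fit to 30 libraries with a replicate block gave 237 and 287. Of the genes whose adjusted p between the Lot 12 lines is given above, the block changed the call of Fxyd6 and of no other. In the 6 Lot 12 libraries alone, the block also called genes named above without such a p. These were Clu, Actg2, Mfap4, Gpx7, Tgfb2, Ccnd2, Serpinh1, Tagln, Adm, Tspan3 and Aga. For Clu the edgeR adjusted p was 0.288 in the 30 libraries without a block and 0.0015 in these 6 with it. Cdc20, at -0.39 on the log2 scale, ranged from -0.75 to 0.066 with 1 replicate number left out. Apoe fell to 2.14 without number 2. Left-out Lot 12 lines moved Crym (6.10 without the female, 2.81 without the male), Col2a1 (5.71 and 2.63) and Gpx7 (1.82 without the female, against 4.22). Over the named genes, 2618 alternative values kept within the spread, 69 moved beyond it and 1 reversed. The causes were not tested. Genes near 1 CPM rest on few counts, and depth limits what single libraries show of them.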

Other observations

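Families of housekeeping genes, grouped by the start of their symbols after their values were seen, had more lower than higher members in Lot 12. Of 79 tested cytosolic ribosomal protein genes, 32 lay below all 6 other lines in both Lot 12 lines and 0 above. The lower share was 40.5%, against 10.3% over all genes, and the median log2 fold change was -0.29. As a whole the family overlapped, with sums of 196002 to 213584 CPM in Lot 12 lines and 206595 to 280674 CPM in the others. Its mean centred log2 CPM was -0.28 (Lot 12 female) and -0.16 (Lot 12 male), with Lot 7 female between them at -0.20. Mitochondrial ribosomal proteins had 28 of 77 lower and 0 higher, with a median of -0.21. Proteasome subunits had 19 of 46 lower and 0 higher, with a median of -0.23. Ribosomal protein genes have many processed pseudogenes, so their counts depend on how shared reads were assigned.

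Histone genes of the Hist clusters, whose replication-dependent mRNAs mostly lack a poly(A) tail, had 15 of 40 lower and 4 higher, with a median log2 fold change of -0.69, larger in size than the medians of the 3 families above. Collagen chains as a family had 12 of 21 tested members higher (57.1%) and 0 lower, with a median of 1.13. Over all genes 9.01% were higher and 10.3% lower.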
